A study of Mus musculus with 2 samples.

Results

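The 35 genes described here are a chosen set of myeloid and major histocompatibility complex (MHC) class II genes, taken by name from the 32285 genes of both count matrices. They hold 3 class II chains (H2-Aa, H2-Ab1, H2-Eb1), 5 genes of class II control and peptide loading (Ciita, Cd74, H2-DMa, H2-DMb1, Ctss), 8 genes shared by myeloid cells (Lyz2, Il1b, Fcgr3, Itgam, Cd14, Spi1, Ccr1, Cst3), 10 macrophage genes, 6 dendritic cell genes and 3 neutrophil genes. The cells came from MB49 tumours, grown from a mouse bladder carcinoma cell line, in C57BL/6J mice of 12 to 14 weeks, 14 days after transplant. One library was made from male and another from female mice, from collagenase-digested tumour sorted for cells labelled as viable CD4+ T cells, with 10000 to 20000 cells loaded on the 10x GEM-X 5′ system. No genotype or agent other than the tumour was labelled, and the number of mice per library was not stated. With 1 library per sex, a difference between the sexes cannot be told apart from one between libraries, and no test was made. Intervals below are exact 95% intervals that cover counting error only.

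Class II molecules carry peptides from the endosome to the surface of macrophages, dendritic cells and B cells, where CD4+ T cells read them. The alpha and beta chains are held by the invariant chain Cd74, which Ctss helps to trim before H2-DM exchanges the last fragment for a peptide, and the coactivator Ciita switches the chains, Cd74 and H2-DM on together. Mouse T cells are known for making little class II protein, so the question addressed was which of the genes stood in a few barcodes of other cells and which ran at a low level through the T cells.

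Class II promoters share short boxes, and myeloid promoters often hold sites of the Ets family, to which Spi1 (PU.1) belongs. Promoters are shown only for genes that held a motif searched for below, so they are no sample of the set. H2-Aa, H2-Eb1 and Lyz2 were confined to few barcodes by the rule given below, while H2-DMb1, C1qb and C1qc were not. Il1b, Cd209a and Fscn1, also confined, had a promoter entry but held none of the motifs and are not shown. Of the 35 genes, 25 had an entry in the RefSeq promoter table (GRCm38.p6). The 250 bases before each start were searched on both strands for GATTGG (the Y box core of class II promoters), TAGCAAC (an X box core), AGGAAGT (a PU.1-type core) and TTCNNNGAA (a STAT-type site), and no match overlapped another of these motifs. Each line gives the 220 bases before the start, 5′ to 3′, with GATTGG or its reverse complement in capitals in the class II genes: H2-Aa (chr17:34287824-34288043, minus strand), H2-Eb1 (chr17:34305647-34305866, plus strand) and H2-DMb1 (chr17:34152971-34153190, plus strand).
H2-Aa: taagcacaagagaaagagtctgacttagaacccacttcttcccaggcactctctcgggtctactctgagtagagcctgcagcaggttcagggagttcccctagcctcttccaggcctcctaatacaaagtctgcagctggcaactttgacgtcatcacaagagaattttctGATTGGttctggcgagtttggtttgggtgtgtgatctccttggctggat
H2-Eb1: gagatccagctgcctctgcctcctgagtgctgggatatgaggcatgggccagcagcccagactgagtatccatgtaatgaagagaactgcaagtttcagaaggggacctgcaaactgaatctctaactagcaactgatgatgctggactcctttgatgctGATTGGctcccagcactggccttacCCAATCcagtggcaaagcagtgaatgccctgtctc
H2-DMb1: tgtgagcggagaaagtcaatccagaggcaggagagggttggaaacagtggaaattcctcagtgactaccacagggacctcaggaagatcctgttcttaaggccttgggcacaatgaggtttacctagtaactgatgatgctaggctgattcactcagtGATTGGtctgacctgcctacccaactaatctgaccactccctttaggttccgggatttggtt
In the myeloid genes the capitals mark ACTTCCT, the reverse complement of AGGAAGT: C1qb (chr4:136886201-136886420, minus strand), C1qc (chr4:136892915-136893134, minus strand) and Lyz2 (chr10:117282273-117282492, minus strand).
C1qb: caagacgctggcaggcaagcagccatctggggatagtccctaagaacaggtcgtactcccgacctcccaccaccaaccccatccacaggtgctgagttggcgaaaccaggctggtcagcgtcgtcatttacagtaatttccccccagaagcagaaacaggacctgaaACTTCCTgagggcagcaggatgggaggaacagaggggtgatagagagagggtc
C1qc: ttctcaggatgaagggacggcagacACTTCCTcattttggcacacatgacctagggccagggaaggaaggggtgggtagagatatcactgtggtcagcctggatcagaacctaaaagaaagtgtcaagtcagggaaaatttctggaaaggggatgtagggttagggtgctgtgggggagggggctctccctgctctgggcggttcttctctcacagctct
Lyz2: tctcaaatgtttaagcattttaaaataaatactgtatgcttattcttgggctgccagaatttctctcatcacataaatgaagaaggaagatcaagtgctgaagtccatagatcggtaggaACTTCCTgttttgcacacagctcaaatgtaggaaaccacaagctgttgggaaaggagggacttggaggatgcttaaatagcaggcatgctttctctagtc

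GATTGG lay 49 to 44 bases before the start of H2-Aa, 60 to 55 before that of H2-Eb1 and 62 to 57 before that of H2-DMb1. H2-Eb1 and H2-DMb1 also shared the run AACTGATGATGCT of 13 bases, beginning 89 and 92 bases before the start, which 2 of 27025 genes held in this window. GATTGG was found in 6 of the 25 genes (H2-Aa, H2-Eb1, H2-DMa, H2-DMb1, Cd68, Xcr1) and in 16.6% of all 27025 genes. TAGCAAC was found in 3 (H2-Eb1, Cd68, Csf3r) against 3.71% of all genes, AGGAAGT in 5 (Lyz2, C1qb, C1qc, Mrc1, S100a8) against 8.80%, and TTCNNNGAA in 1 (Siglech) against 8.13%. A match describes letters in the window and is neither a binding site nor a cause.

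A filter of 500 detected genes and no more than 10% mitochondrial counts left 3468 of 3658 female and 3519 of 3708 male barcodes. Counts are unique molecular identifiers (UMIs), 1 per captured RNA molecule. The female library held 55880364 UMIs, with a median of 9517 per kept barcode, and the male library 50946624, with 7880. Barcodes with a Cd3e UMI and under 25000 UMIs (shallow Cd3e barcodes) numbered 2657 female and 2610 male, those with Cd3e and 25000 or more (deep Cd3e barcodes) 603 and 541, and Cd3e-free barcodes 208 and 368. Although the sort was labelled CD4+, 1864 female and 1620 male shallow barcodes held at least 2 Cd8a or Cd8b1 UMIs and no Foxp3 (Cd8 barcodes), while 235 and 345 held Foxp3, the marker of regulatory T cells, and under 2 Cd8 UMIs (Foxp3 barcodes). Another 117 and 155 held both and 441 and 490 neither. Another T cell gene was found in 56.25% of female and 70.7% of male Cd3e-free barcodes. Among them, 29 female and 24 male barcodes held at least 10 Krt8 and Krt18 UMIs and are called keratin barcodes. They held 1417384 of the 1942056 female and 1144437 of the 2114679 male Cd3e-free UMIs. The libraries shared 16 barcode sequences, 12 of them kept. No doublet caller was run and no doublets were removed, and in a deep barcode 1 cell and several cells cannot be told apart.

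Of the 35 genes, 7 were confined to few barcodes in both libraries, 5 were spread at a low level through T cell barcodes, 12 lay between, and 11 had under 50 UMIs in a library. A gene was called confined where the 1% of kept barcodes with most of its UMIs held at least 75% of them, at a mean of at least 3 UMIs per barcode with the gene. The confined genes were H2-Aa, H2-Eb1, Lyz2, Il1b, Arg1, Cd209a and Fscn1, while 1.57% of the 11902 genes with 50 UMIs in each library met this rule. A gene was called spread where at least 5% of shallow Cd3e barcodes held a UMI and the top 1% of them held under 50% of its UMIs there. The spread genes were Cd74, H2-DMa, Ctss, Cd68 and Cst3, and 81.4% of the 10285 genes with 50 UMIs there met that rule. The 11 genes with under 50 UMIs in a library could meet neither rule, so counts out of 35 and these shares cover unlike sets. Among the 24 genes with 50 UMIs in each library, the top 1% of barcodes held a median of 86.4% (female) and 75.9% (male) of a gene's UMIs, against 14.1% and 15.2% over all such genes. Close to the limits, the top 1% of shallow barcodes held 48.1% and 47.0% of the Cd74 UMIs there, and the top 1% of kept barcodes 70.5% and 67.3% of the H2-Ab1 UMIs. With the split at 15000 UMIs Cd74 was no longer spread. With barcodes thinned to 3000 UMIs H2-DMa and Cd68 were no longer spread, and Cd74, Ctss and Cst3 were. Without the barcode richest in each gene, Arg1 and Cd209a were no longer confined.

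**Figure D1:**
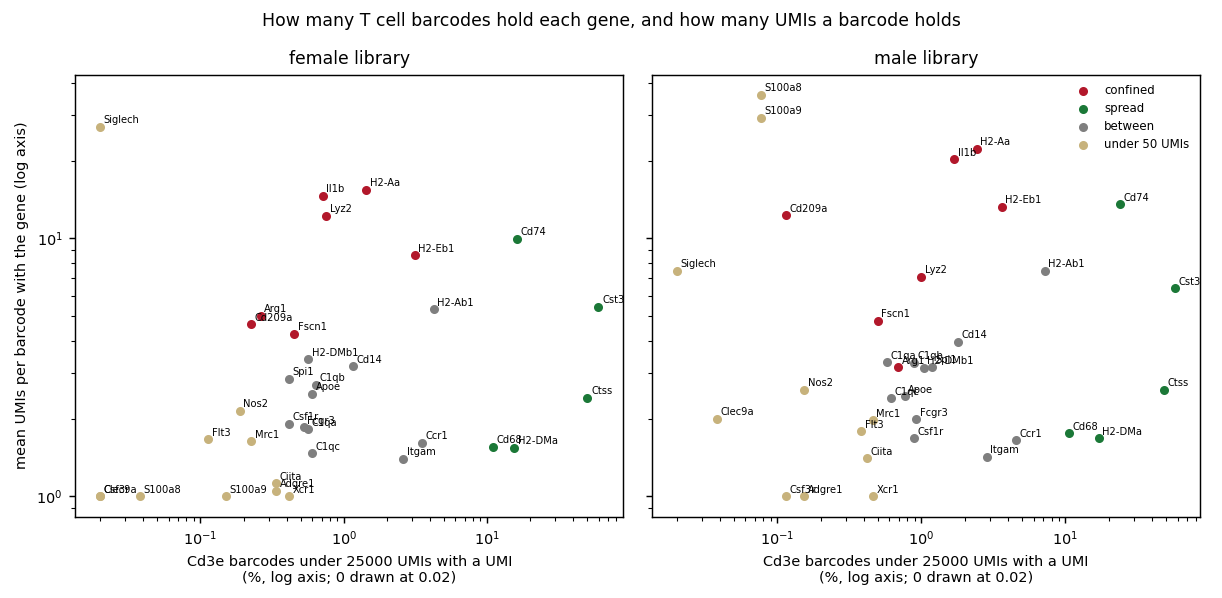
Each point is 1 gene in 1 library. The x axis gives the percent of Cd3e barcodes under 25000 UMIs with a UMI of the gene and the y axis the mean UMIs per kept barcode that holds it, both on log axes, with colours for the pattern in both libraries. Cst3, Ctss and Cd74 stand at the right, H2-Aa and Il1b high at the left (female 15.4 and 14.6 UMIs per barcode, male 22.1 and 20.2).

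The class II chains were carried by few barcodes at high levels. H2-Aa, the alpha chain of I-A (GRCm38, chr17:34282744-34287823, minus strand), had 1721 female and 3787 male UMIs in 112 and 171 barcodes, with up to 165 and 286 UMIs in 1 barcode. H2-Eb1, the beta chain of I-E, had 1647 and 3194 UMIs in 192 and 241 barcodes. H2-Ab1, the beta chain of I-A, had 1572 and 3190 UMIs in 296 and 426 barcodes and reached furthest into T cells, with a UMI in 4.25% of female and 7.16% of male shallow Cd3e barcodes against 1.43% and 2.41% for H2-Aa. Barcodes with at least 3 UMIs over at least 2 of the 3 chains numbered 103 of 3468 (female) and 155 of 3519 (male), and they held 98.0% and 98.8% of all H2-Aa UMIs. The chains named these barcodes, so that share is a description. H2-Eb2, the neighbouring related gene, had 2 and 1 UMIs in all kept barcodes.

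Cd74, the invariant chain, was found in far more T cell barcodes than the chains it holds. Its 8241 female and 14584 male UMIs lay in 826 and 1076 barcodes, and 16.1% and 24.1% of shallow Cd3e barcodes held it. In barcodes with the chains, macrophage, dendritic or neutrophil genes there were 0.995 (female) and 0.980 (male) Cd74 UMIs per class II chain UMI. In Foxp3 barcodes outside these there were 15.2 and 9.61 Cd74 UMIs per chain UMI, and in Cd8 barcodes outside these 4.32 and 7.57. Taking out barcodes with chains raises that ratio by construction, and over all Foxp3 barcodes it was 1.33 and 1.42, and over all Cd8 barcodes 3.10 and 2.31.

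The other loading genes differed among themselves. H2-DMa, the alpha chain of the peptide exchanger, was spread, with a UMI in 15.5% of female and 17.0% of male shallow Cd3e barcodes, while its partner H2-DMb1 was in 0.565% and 1.03%. Ctss, the cathepsin that trims Cd74, was in 50.2% and 48.2% of shallow Cd3e barcodes, and the barcodes with class II or myeloid groups held 11.3% and 18.7% of its UMIs. Ciita, the coactivator, had 27 and 45 UMIs, and 12 of 24 female and 22 of 32 male barcodes with it also held H2-Aa, against 2.90% and 4.27% of the other kept barcodes. H2-DMb1 was found with H2-Aa in 45 of 79 and 78 of 104 barcodes. H2-DMb2, a close copy of H2-DMb1, had 12 and 9 UMIs in Cd3e-free barcodes beside 124 and 95 of H2-DMb1, so the split of reads between them is uncertain.

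Foxp3 barcodes carried more Cd74, Ctss, Cst3 and, less firmly, H2-DMa than Cd8 barcodes, and a few of them carried the class II chains at high levels. Levels are given as UMIs of the gene per 1000000 UMIs of the summed barcodes (CPM), and a gene was counted as higher or lower where the levels lay at least 1.5-fold apart and the interval of the ratio left out 1, in both libraries. Of the 13 genes measured in both (at least 20 UMIs, and 10 CPM in 1 kind of barcode), 11 were higher in Foxp3 barcodes: the 3 chains, H2-DMa, H2-DMb1, Cd74, Ctss, Il1b, Spi1, Ccr1 and Cst3. Over all measured genes 15.5% were higher, and no gene of the set was lower, against 6.72%. The other 22 of the 35 genes were not measured in both. Of the 13, 8 reached 10 CPM on both sides in neither or only 1 library, so their call was in part fixed by the filter and the count supports nothing. Of the 5 that reached 10 CPM on both sides in both libraries, 4 were higher (H2-DMa, Cd74, Ctss, Cst3) and Cd68 was not. No share over all genes with 10 CPM on both sides was computed, here or for the counts of this kind below. Those counts are therefore descriptions without a matched background. Scaling by TMM or median-of-ratios factors lowered each Foxp3 over Cd8 log2 ratio by 0.11 to 0.14.

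For the chains, that ratio came from few barcodes. H2-Aa stood at 248 CPM (225 to 272) in female and 277 CPM (257 to 299) in male Foxp3 barcodes, against 2.84 and 12.7 in Cd8 barcodes, but only 8 of 235 and 12 of 345 Foxp3 barcodes held it. Leaving out the barcodes of the 4 groups described below, an alternative chosen after the data were seen, left H2-Aa at 1.17 CPM in female and 1.70 CPM in male Foxp3 barcodes. The 3 chains drew the class II group, so this drop was set by the rule and supports nothing. Without the barcodes of the 4 groups, 4 of 7 measured genes were higher (Cd74, Ctss, Ccr1, H2-Eb1), against 15.3% of all genes, and 0 were lower, against 6.47%. Of the 5 with 10 CPM on both sides, 2 were then higher, Cd74 and Ctss. H2-Eb1 kept a UMI in 8.44% of female and 7.81% of male Foxp3 barcodes, against 0.973% and 0.501% of Cd8 barcodes. H2-DMa stood at 44.5 and 38.8 CPM against 18.7 and 23.6, with log2 ratios that dropped from 1.25 and 0.72 to 0.79 and 0.11 outside the groups, and without the barcode richest in it H2-DMa was no longer higher in both libraries. The H2-DMa call was also lost with TMM scaling, at a 2-fold limit, with equal weight per barcode and with the depth split at 20000 or 15000 UMIs.

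Cd74 was found in 58.7% (52.1 to 65.1) of female and 65.8% (60.5 to 70.8) of male Foxp3 barcodes, against 9.92% (8.60 to 11.4) and 14.8% (13.1 to 16.6) of Cd8 barcodes. Median depths were 6579 and 6308 UMIs in Foxp3 and 9312.5 and 8330 in Cd8 barcodes, so the Foxp3 barcodes were the shallower ones. Outside the 4 groups the shares were 56.9% and 64.6% against 9.25% and 13.6%, at 400 and 499 CPM against 25.2 and 58.1. Thinned to 3000 UMIs per barcode, leaving out 59 and 70 Cd8 and 11 and 16 Foxp3 barcodes, they were 46.9% and 55.3% against 4.82% and 8.49%. The log2 ratio of CPM was 4.61 and 3.51 in all such barcodes and 3.99 and 3.10 outside the groups, so the Cd74 call stood without them.

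Ctss and Ccr1 followed the same order. Ctss was in 68.1% of female and 67.2% of male Foxp3 barcodes against 49.9% and 45.6% of Cd8 barcodes, at 222 and 224 CPM against 78.9 and 80.4. Ccr1, a chemokine receptor of monocytes that T cells can also carry, was in 8.51% and 12.5% against 2.90% and 2.65%. Cst3, the secreted cysteine protease inhibitor cystatin C, was in 72.8% and 73.6% against 63.0% and 59.0%, and its ratio fell to 1.39-fold and 1.42-fold outside the groups, under the 1.5-fold limit.

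Markers of other cells were summed beside these ratios. The 6 macrophage markers summed to 9.88 CPM in female Foxp3 and 4.39 in Cd8 barcodes, and to 5.59 and 8.92 in the male library, where C1qa, C1qb and C1qc were at 0 in Foxp3 barcodes. The 6 dendritic markers (Flt3, Xcr1, Clec9a, Cd209a, Siglech and Zbtb46) summed to 36.2 against 4.13 CPM (female) and 35.2 against 5.65 (male). Flt3 and Siglech were at 0 in the Foxp3 barcodes of both, Clec9a in the female and Xcr1 in the male ones. Over all kept barcodes Zbtb46 held 374 of the 503 female and 477 of the 752 male UMIs of this list. That share does not give the make-up of the sums in Foxp3 barcodes. The female Foxp3 sum was 66 UMIs, and in it 1 barcode held 23 Cd209a UMIs, another 9 and another 3. Only 12.3% and 16.6% of the Zbtb46 UMIs lay in the 4 groups. The 3 endothelial markers summed to 69.7 against 16.2 CPM (female) and 57.5 against 19.1 (male), with Cdh5 and Kdr at 0 in both kinds of barcode. The 3 natural killer cell markers went the other way, with 1.10 against 40.2 and 4.39 against 41.3 CPM and Ncr1 at 0 in Foxp3 barcodes. The 4 keratin and epithelial markers summed to 13.7 against 4.34 and 23.2 against 3.79 CPM, with Krt19 at 0 in Foxp3 barcodes. Their part in the Foxp3 over Cd8 ratios was not tested. Leaving out the class II and myeloid groups did not test it, since endothelial, keratin and natural killer cell markers did not draw those groups. The Cd74, Ctss, Ccr1 and H2-Eb1 calls stood without them, but Ccr1 and H2-Eb1 did not reach 10 CPM on both sides in both libraries.

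**Figure D2:**
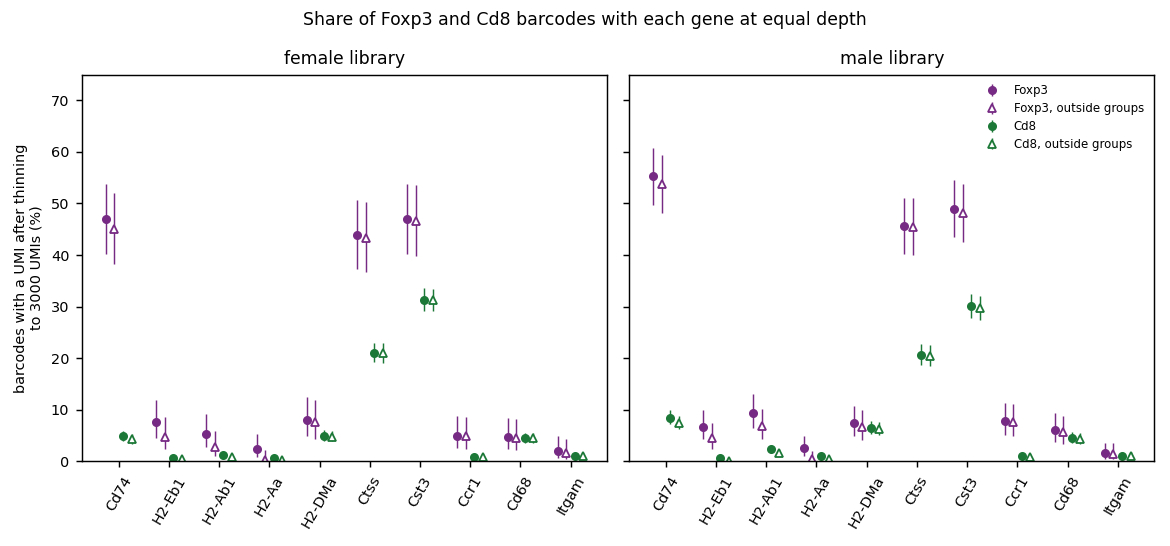
The y axis gives the expected percent of barcodes with a UMI after thinning each to 3000 UMIs, with exact 95% intervals, for 10 genes in Foxp3 (purple) and Cd8 barcodes (green), in all such barcodes (filled circles) and outside the 4 groups of class II and myeloid barcodes (open triangles). Cd74 differs most (46.9% against 4.82%, female, and 55.3% against 8.49%, male), while H2-Aa lies at or under 2.51% in all.

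The genes shared by myeloid cells split in the same way. Il1b, the inflammatory cytokine, had 976 female and 2567 male UMIs in 67 and 127 barcodes, and 43 and 79 of these held H2-Aa as well. Spi1, the myeloid and B cell transcription factor PU.1, had 134 and 308 UMIs and went with Il1b in 34 of 47 and 78 of 97 barcodes, against 0.965% and 1.43% of the others. Cd14, the lipopolysaccharide co-receptor, had 351 and 575 UMIs, and Fcgr3, an Fc receptor whose reads may be shared with its close relatives Fcgr2b and Fcgr4, had 87 and 155. Itgam, the integrin chain CD11b, was thin and wide, with 164 and 217 UMIs in 117 and 152 barcodes. Cst3 was spread, with 12222 and 13582 UMIs, in 59.9% and 57.6% of shallow Cd3e barcodes.

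Lyz2, the lysozyme of macrophages and neutrophils, was unevenly spread over the barcodes that held it. In the female library 53 barcodes held it, and 1 of them had 305 of 649 UMIs, with 19194 UMIs of all genes, 4 Cd3e, 5 Foxp3, 50 Cd14, 7 Csf1r, 7 Spi1 and 9 Cd209a UMIs, and it met none of the 4 group rules. In the male library 85 barcodes held it, and 1 of them had 154 of 603 UMIs, with 67 Cd8a or Cd8b1, 34 H2-Aa and 80 Il1b UMIs. No other Foxp3 barcode of the female library held Lyz2. Its Foxp3 over Cd8 ratio had opposite signs in the libraries. Lyz1, its close copy, had no UMI in Cd3e-free barcodes.

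Among macrophage genes, those of the complement starter C1q were often found together. C1qa, C1qb and C1qc, which lie side by side on chromosome 4 (136880129 to 136898803, minus strand), had 51, 103 and 50 female and 149, 188 and 120 male UMIs. C1qb was found in 9 of 28 female and 28 of 45 male C1qa barcodes, against 0.843% and 0.835% of the others. Csf1r, the receptor for macrophage growth factor, had 84 and 99 UMIs and shared 7 of 44 and 13 of 59 barcodes with C1qb. Apoe, the lipid carrier, had 95 and 132 UMIs and shared 6 of 38 and 16 of 54. Arg1, the arginase of suppressive macrophages, had 105 and 152 UMIs, and 7 of 21 and 17 of 48 barcodes with it held C1qb.

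The remaining macrophage genes gave little or did not keep to these barcodes. Adgre1, which encodes the F4/80 antigen, had 21 and 14 UMIs in 20 and 14 barcodes. Mrc1, the mannose receptor, had 36 and 63 UMIs, and Nos2, the inducible nitric oxide synthase, 45 and 44. Nos2 and Arg1, often used as opposite poles of macrophage state, were held together by 2 barcodes in each library, and 27 of the 45 and 23 of the 44 Nos2 UMIs stood in keratin barcodes. Cd68, a lysosomal protein used as a macrophage marker, was spread, with a UMI in 293 of 2657 and 276 of 2610 shallow Cd3e barcodes and 12.9% and 11.6% of Cd8 barcodes outside the groups. Its UMIs were thus found well beyond the barcodes with C1q.

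Dendritic cell genes fell into unlike sets. Cd209a, a lectin of monocyte-derived and conventional type 2 dendritic cells, had 65 and 184 UMIs in 14 and 15 barcodes, of which 11 and 15 held H2-Aa and 10 and 14 held Il1b. None of the 14 female and 1 of the 15 male Cd209a barcodes held C1qb. Fscn1, the actin bundler of mature dendritic cells, had 196 and 283 UMIs in 46 and 59 barcodes, and none and 2 of these held Cd209a. Flt3, the growth factor receptor of dendritic cells, had 15 and 50 UMIs, and 5 of its 9 female and 10 of its 28 male barcodes held Fscn1.

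The markers of cross-presenting dendritic cells were near the floor. Xcr1 had 19 and 22 UMIs, 1 per barcode throughout, none of them with Clec9a, and 1 and 2 of these barcodes held H2-Aa. Clec9a had 3 and 4 UMIs, of which 3 of the male ones lay in 1 barcode with 115 H2-Aa UMIs. Siglech, of plasmacytoid dendritic cells, had 27 female UMIs, all in 1 Cd3e-free barcode with 10935 UMIs that also held 31 H2-Aa and 92 Cd74 UMIs. In the male library 14 of 15 Siglech UMIs lay in 1 deep barcode with 49 Cd3e UMIs.

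Of the neutrophil genes, S100a8 and S100a9 were high in 1 male barcode. S100a8 and S100a9, which form calprotectin, had 106 and 114 UMIs in a single male barcode of 15909 UMIs with 14 Cd3e UMIs, and 2 and 3 UMIs in the rest of the male library. The female library had 5 S100a8 and 8 S100a9 UMIs, no more than 1 per barcode. Csf3r, the receptor for granulocyte growth factor, had 5 and 12 UMIs, none of them with S100a8.

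Co-detection gave 4 groups of barcodes, each with at least 3 UMIs over at least 2 genes of a set. The macrophage set (C1qa, C1qb, C1qc, Csf1r, Adgre1, Mrc1) gave 21 female and 40 male barcodes, the dendritic set (Flt3, Xcr1, Clec9a, Cd209a, Siglech) 2 and 9, the neutrophil set 0 and 1, and the class II chains 103 and 155. With 0 of 3468 female barcodes, the floor of 3 counts allows up to 0.0865% of barcodes by this rule, and the exact interval reaches 0.106%. No barcode met both the macrophage and the dendritic rule, 19 and 28 of the macrophage barcodes met the class II rule, and all 2 and 9 dendritic barcodes did. At a limit of 10 UMIs, 5 and 12 macrophage, 0 and 7 dendritic and 53 and 89 class II barcodes were left, so these sums are ranges and not cell types.

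Genes the rules did not use gave more detail. Il1b was in 76.2% of female and 62.5% of male macrophage barcodes and in 2 of 2 and 8 of 9 dendritic ones, against 1.48% to 3.39% of the other kept barcodes. Lyz2 was in 13 of 21 and 30 of 40 macrophage barcodes, and in 0 of 2 and 5 of 9 dendritic ones. Tyrobp, a signalling adaptor of myeloid and natural killer cells that was chosen here after its values were seen, was in 95.2% and 87.5% of macrophage barcodes against 3.97% and 5.49% of the others. Median depths were 35435 and 26125 UMIs in macrophage and 39415 and 38788 in dendritic barcodes, against 9517 and 7880 over all kept ones. Greater depth raises any share of barcodes with a UMI. Neither these shares nor those of gene pairs above were compared at equal depth. Outside the lists, the genes that stood highest in macrophage barcodes over the other barcodes were the chemokines Ccl24 and Ccl6, then Wfdc17, Tgfbi and Ptgs2, with Ccl24 at 221 CPM against 6.89 (female) and 308 against 4.55 (male). In class II barcodes they were Ccl24, Nppb, Ccnd1, Basp1 and Krt8. In dendritic barcodes no ratio exceeded 2.08 in either library for the 5 leading genes, H2afz, Fth1, Arl6ip1, Arpc1b and Pgk1. The female dendritic group was only 2 barcodes, so the UMIs required of a gene in both libraries let in abundant genes alone. These 5 stood at 710 to 3945 CPM there. Their low ratios were in part set by this rule. Genes at lower levels could not enter, so whether any of them marks the dendritic barcodes was not tested.

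Most of these barcodes also held T cell genes. Of the class II barcodes, 84 of 103 female and 138 of 155 male held Cd3e, and 55 and 91 were deep Cd3e barcodes, 9.12% and 16.8% of that kind against 1.09% and 1.80% of the shallow ones. Their median was 39750 and 38725 UMIs. Of the macrophage barcodes 20 of 21 and 35 of 40 held Cd3e. Sorting the class II barcodes by what else they held, in a fixed order, gave 15 female and 13 male with at least 10 keratin UMIs, then 19 and 28 with macrophage genes, 2 and 9 with dendritic genes, 5 and 10 with at least 3 Fscn1 UMIs and 21 and 38 with at least 3 Il1b UMIs. The Il1b barcodes held 47.1% and 43.6% of the chain UMIs of all class II barcodes. The 41 and 57 barcodes with none of these held a median of 4 and 5 chain UMIs.

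**Figure D3:**
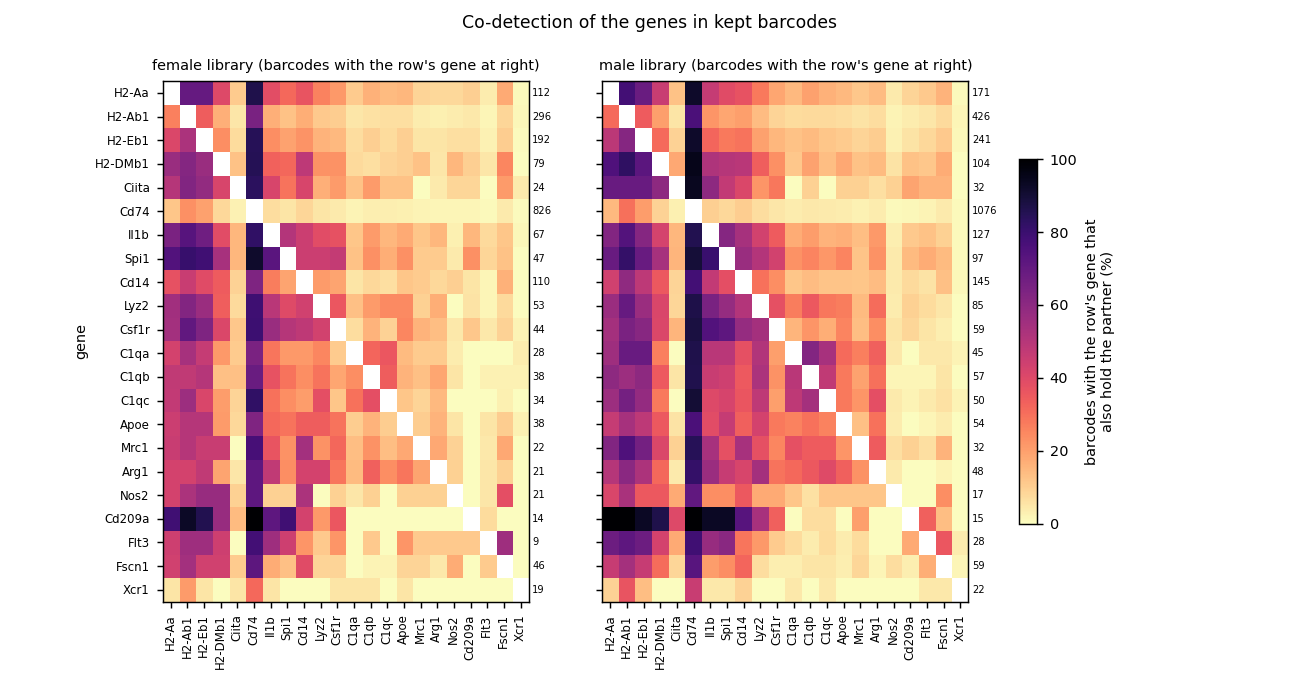
Colour gives the percent of barcodes with the row's gene that also hold the partner gene, and the number at the right counts barcodes with the row's gene. The C1q genes form a block (C1qa with C1qb in 32.1% of female and 62.2% of male barcodes) that Cd209a does not join (C1qb in 0 and 6.67%), and Xcr1 is seen with Cd74 in 31.6% and 45.5% but with H2-Aa in 5.26% and 9.09% of its barcodes.

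The keratin barcodes carried class II genes together with some, but not others, of the myeloid genes. Cd74 was in 20 of 29 female and 20 of 24 male keratin barcodes, H2-Aa in 14 and 13, H2-Eb1 in 14 and 14, and H2-DMb1 in 22 and 14. Cst3 was in all of both, Cd14 in 15 and 15, Fscn1 in 12 and 12, Nos2 in 10 and 7, and Mrc1 in 7 and 5. Lyz2 was in 1 of each. None held a UMI of Il1b, Spi1, Csf1r, Fcgr3, C1qa, C1qb, C1qc, Adgre1, Arg1, Flt3, Xcr1, Clec9a, Cd209a or Siglech. Set at the floor of 3 counts, 0 of 29 and 0 of 24 allow up to 10.3% and 12.5% of keratin barcodes with a UMI, which is no limit on those expressing the gene. These are deep barcodes, with medians of 52964 and 44362 UMIs, which raises any share of barcodes with a UMI. Ctss was in only 3 and 1 of them, at 2.12 and 0.874 CPM against 95.4 and 105 in shallow Cd3e barcodes. There were 0.840 and 0.881 Cd74 UMIs per chain UMI in them.

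**Figure D4:**
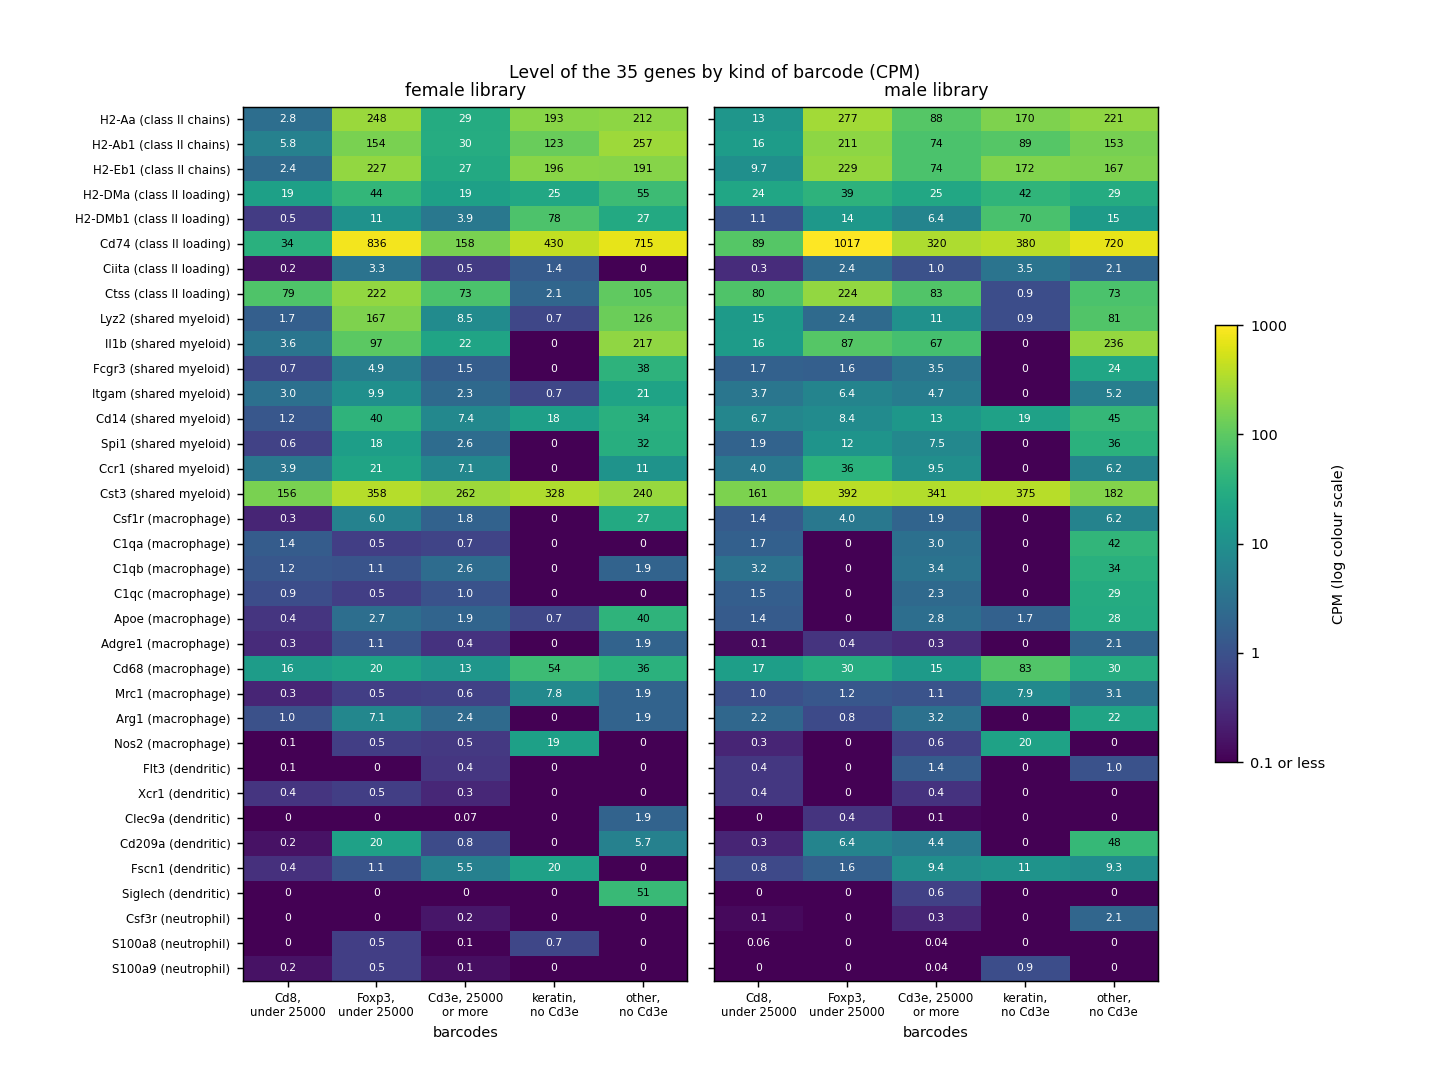
Each cell gives a gene's level in CPM, with colour on a log scale, in 5 kinds of barcodes of each library: Cd8 and Foxp3 barcodes under 25000 UMIs, Cd3e barcodes of 25000 or more, keratin barcodes without Cd3e and the other barcodes without Cd3e. Class II chains are high in keratin barcodes (H2-Aa 193 and 170 CPM), where Il1b and the C1q genes are at 0.

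Summed over barcodes, Cd3e-free barcodes held more of the class II chains, Cd74, Lyz2, Cd68 and Cst3 than shallow Cd3e barcodes, and less Ctss. These were the 7 higher and the 1 lower of the 9 genes with 10 CPM on both sides in both libraries, H2-DMa being the other. With equal weight per barcode H2-Ab1, Cd74, Cd68 and Cst3 were no longer higher in both libraries. Cst3 was also lost with TMM scaling, without keratin barcodes and with no barcode filter. Of all 16 genes measured in both, 14 were higher, against 20.1% of all measured genes, and 1 lower, against 15.1%, but 7 of the 16 passed the filter through the Cd3e-free side in at least 1 library, so this count supports nothing. H2-Aa stood at 198 CPM against 20.3 (female) and 193 against 48.5 (male). Nos2, Fscn1 and H2-DMb1, all frequent in keratin barcodes, were among the 14. Outside the 4 groups 3 of these stayed higher (Il1b, Cd68 and Cd14), an alternative chosen after the data were seen. The chains drew the class II group, so their loss was in part set by the rule, and no share over all genes was computed. The 4 keratin and epithelial markers summed to 3035 CPM in female and 2279 in male Cd3e-free barcodes, against 4.98 and 7.23 in shallow ones. The 4 fibroblast markers summed to 111 against 1.92 CPM (female) and 645 against 15.1 (male), with none at 0. The macrophage markers summed to 14.4 against 4.55 and 57.7 against 8.88 CPM, with C1qa and C1qc at 0 in female Cd3e-free barcodes, and the dendritic markers to 19.6 against 7.58 (Flt3 and Xcr1 at 0) and 30.3 against 10.6 (Xcr1, Clec9a and Siglech at 0). The part of these markers in the ratios was not tested. Without keratin barcodes the log2 ratio of Ctss in the female library turned to 0.14.

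Deep Cd3e barcodes differed less from shallow ones. Of 10 measured genes 3 were higher in both libraries (Il1b, Cst3, H2-Ab1), against 5.44% of all genes, and 0 were lower, against 4.8%. Of the 8 with 10 CPM on both sides in both libraries, 2 were higher, Cst3 and H2-Ab1. Il1b stood at 21.6 against 9.85 CPM (female) and 67.1 against 26.9 (male). Outside the 4 groups 1 of the 3 remained, Cst3. H2-Ab1 was among the genes that drew the class II group, and no share over all genes was computed there. The macrophage markers summed to 7.12 against 4.55 and 12.0 against 8.88 CPM, with none at 0. The keratin and epithelial markers summed to 81.2 against 4.98 and 14.8 against 7.23 CPM, and the fibroblast markers to 30.2 against 1.92 and 35.7 against 15.1. Their part in the deep over shallow ratios was not tested.

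The female library held less of the class II chains in its T cell barcodes. In shallow Cd3e barcodes 5 of 10 measured genes were lower in the female library (H2-Aa, H2-Ab1, H2-Eb1, Cd74, Il1b), against 1.24% of all genes, and 0 were higher, against 0.496%. Of the 9 with 10 CPM in both libraries, 4 were lower, the chains and Cd74. H2-Aa stood at 20.3 CPM (female) and 48.5 (male), a log2 ratio of -1.26 (-1.41 to -1.11). In deep Cd3e barcodes 6 of 11 were lower, the same 5 and Cd14, against 1.06%, and 0 higher, against 0.635%. Without the barcode richest in it, Cd14 was no longer among these. In deep barcodes H2-Aa stood at 29.05 and 88.3 CPM and Il1b at 21.6 and 67.1. Cd74 stood at 110 and 228 CPM in shallow and at 158 and 320 in deep barcodes, with log2 ratios of -1.05 (-1.12 to -0.99) and -1.02 (-1.07 to -0.97). Over all kept barcodes 6 of 11 were lower, against 1.01%, and 0 higher, against 0.413%.

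The share of class II barcodes and some, but not all, markers of other cells were also lower in the female library. Class II barcodes made up 2.97% (2.43 to 3.59) of the female and 4.40% (3.75 to 5.14) of the male kept barcodes. The macrophage markers summed to 4.55 CPM (female) and 8.88 (male) in shallow and 7.12 and 12.0 in deep Cd3e barcodes, with none at 0, and the dendritic markers to 7.58 and 10.6, and 9.64 and 17.3, with Siglech at 0 in all but the male deep ones and Clec9a at 0 in the female shallow ones. The fibroblast markers summed to 1.92 and 15.1 in shallow and 30.2 and 35.7 in deep ones. The keratin and epithelial markers summed to 4.98 and 7.23 in shallow ones, but went the other way in deep ones, with 81.2 and 14.8. The natural killer cell markers were level in shallow ones, at 33.6 and 33.4, and stood at 23.7 and 35.2 in deep ones. Their part in the female over male ratios was not tested. Outside the 4 groups, lower levels in the female library were left for 2 genes in shallow (H2-Ab1, Cd74) and 1 in deep barcodes (H2-Ab1), and the log2 ratio of H2-Eb1 in shallow barcodes was 0.0935. The chains themselves drew the class II group, so the loss of H2-Aa and H2-Eb1 was in part set by the rule. With the depth split at 15000 UMIs, 1 gene, H2-Ab1, stayed lower in shallow barcodes. No share over all genes was computed for either setting, so these counts have no background. The ratio over libraries is that of 1 pair, and other sources of a difference between them were not tested.

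Cd3e-free barcodes did not show the same order. There 6 of 22 genes were lower in the female library (Il1b, Spi1, C1qa, C1qb, C1qc, Cd209a), against 11.2% of all genes, and 1 was higher (Siglech), against 6.03%. Only Il1b was lower among the 16 genes with 10 CPM in both libraries. H2-Aa stood at 198 CPM (female) and 193 (male), H2-Eb1 at 195 and 170, and Cd74 at 507 and 536. H2-Ab1 stood at 160 and 118, a log2 ratio of 0.43 (0.19 to 0.68) that was under the 1.5-fold limit, and without keratin barcodes it was higher in the female library and Il1b was no longer lower. With equal weight per barcode H2-Aa, H2-Ab1, H2-Eb1 and Cd74 were all higher there by the fold alone. C1qa had 0 female and 41 male UMIs there, C1qb 1 and 33, and C1qc 0 and 28. Siglech had 27 and 0, from the single barcode above. Without the barcode richest in each gene, 2 genes stayed lower (Il1b and Spi1) and none higher, so the calls for each C1q gene, Cd209a and Siglech rested on 1 barcode.

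**Figure D5:**
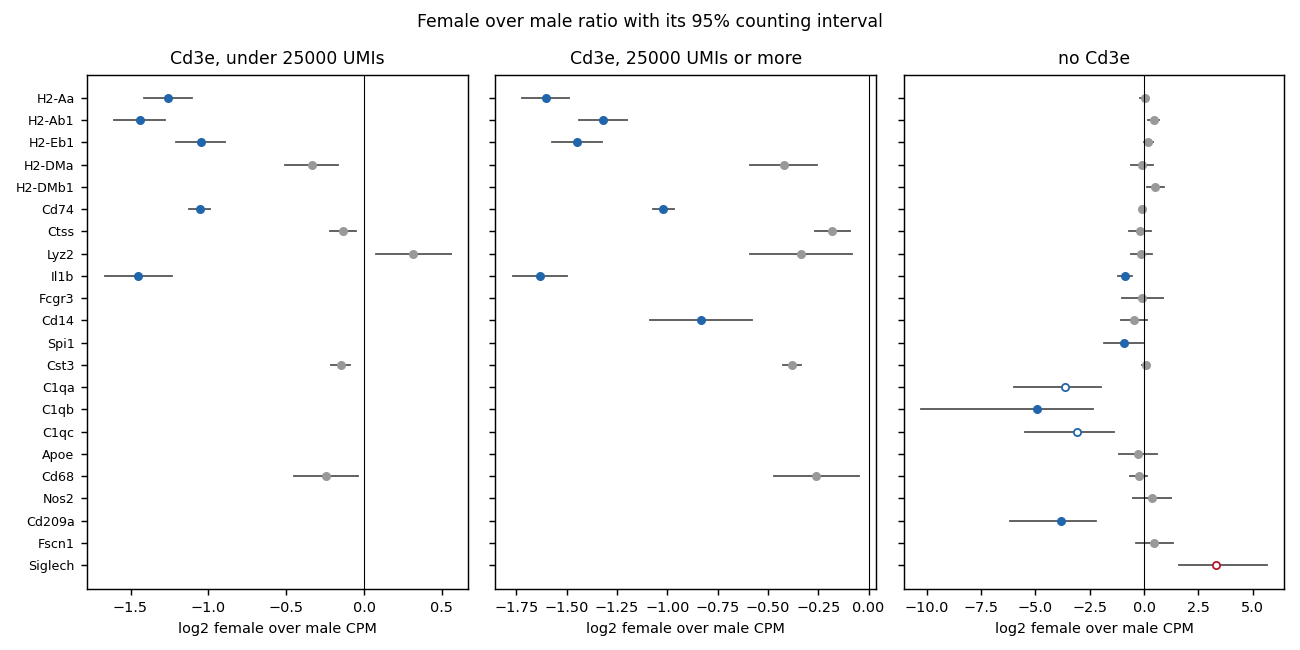
Points give the log2 ratio of female over male CPM and lines its exact 95% counting interval, for the measured genes in 3 kinds of barcodes. Blue points are lower and red points higher in the female library by at least 1.5-fold with an interval that leaves out 0, grey points are not, and open points are bounds against a floor of 3 counts. H2-Aa, H2-Ab1, H2-Eb1, Cd74 and Il1b lie left of 0 in both kinds of Cd3e barcodes, and H2-Aa (0.03) and Cd74 (-0.08) lie near 0 in Cd3e-free ones.

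A list of 36 further genes of the class II pathway and of myeloid cells was less confined. Of these, 1 was confined (Clec4e) and 16 were spread, against 1.57% and 81.4% of all genes with enough UMIs, 11 lay between and 8 had under 50 UMIs in a library. The 8 could meet neither rule, so counts out of 36 and those shares cover unlike sets. Among the 28 with enough UMIs, the top 1% of barcodes held a median of 21.3% and 22.8% of the UMIs. In Foxp3 over Cd8 barcodes 10 of 20 measured genes were higher and 4 lower, against 15.5% and 6.72% of all genes, with the proteases Ctsz, Ctsb and Lgmn and the costimulatory genes Cd80 and Cd83 among the higher. In female over male 1 of 18 was higher (Irf8) and 3 were lower (Tyrobp, Lgmn, Cd83) in shallow Cd3e barcodes, against 0.496% and 1.24%. The 4 with most UMIs in Cd3e-free barcodes were the cathepsins Ctsl, Ctsb and Ctsd and the transcription factor Cebpb. Ctsl stood at 741 CPM (female) and 588 (male) there, against 12.5 and 16.7 in shallow Cd3e barcodes. Ctsb stood at 270 and 236 against 252 and 237, Ctsd at 250.2 and 203 against 425 and 367, and Cebpb at 206 and 239 against 135 and 160.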

How the data were processed

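The 2 deposited matrices give raw UMI counts, whole numbers for each gene in each barcode, and per the file headers the authors produced them with Cell Ranger (version 7.0.1). From the submitters' processing notes come the build, GRCm38, and Seurat 5, whose role is not stated. The annotation release and cell-calling settings are not given in the sources used here. Kept barcodes had 500 or more detected genes, with mitochondrial counts no higher than 10%. UMIs were summed over the barcodes of each kind and divided by their total (CPM), and ratios carry the exact 95% interval of 2 Poisson counts, shares the Clopper-Pearson interval, with a count of 0 set to 3 counts. A ratio was counted where it was at least 1.5-fold and its interval left out 1, among genes with at least 20 UMIs and 10 CPM on 1 side. On counts simulated as Poisson sums, the model the intervals assume, they held the true ratio in 95.3% to 96.0% of genes. This checks the formula and does not cover genes whose UMIs lie in few barcodes. Unchanged genes called there numbered 90 (female) and 80 (male) for Foxp3 over Cd8, and 181 for female over male in Cd3e-free barcodes. They numbered 0 for female deep over shallow and for female over male in shallow barcodes. No model was fitted and no p-value made, since there is 1 library per sex. A barcode's class is a threshold on its UMIs, and free RNA was not removed.

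Alternatives covered the barcode filter, the depth split, the count thresholds, the scaling (edgeR 4.0.16 TMM and DESeq2 1.42.0 size factors, used for scaling only), equal weight per barcode and leaving out the barcode richest in a gene. Leaving out the 4 barcode groups and the keratin barcodes was added after seeing the data. The 35 genes, the 36 further genes and the marker lists were chosen with earlier results of these data known. All 35 genes are named. Of the further genes, the 4 with most UMIs in Cd3e-free barcodes, near-identical copies, those a count refers to and the marker Zbtb46 are named. Per barcode group, the 5 other genes with the largest ratio in both libraries are named. These had at least 50 CPM and 50 UMIs in the group in both. Gene positions come from GENCODE M21 (GRCm38). Promoters of Adgre1, Arg1, C1qa, Cd14, Cd74, Ciita, Csf1r, H2-Ab1, Nos2 and Spi1 were not used here. Python 3.11.15, numpy 2.4.6, scipy 1.17.1, pandas 2.3.3, matplotlib 3.10.9 and R 4.3.3 were used.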

Additional observations from a re-analysis of the deposited data

Results flagged for a closer look

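Lyz2 stood at a log2 ratio of 6.66 in Foxp3 over Cd8 barcodes of the female library and of -2.64 in those of the male library, opposite signs for the same comparison. The difference between the libraries was not tested. In the female library 305 of the 305 Lyz2 UMIs of Foxp3 barcodes came from 1 barcode. In the male library 154 of the 232 Lyz2 UMIs of Cd8 barcodes came from 1 barcode.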

How the results depend on the processing

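No paired analysis was possible because each sex has 1 library. Of 153 counts recomputed under alternatives, 125 stayed within 1.5 times the value reported and 28 did not. Of 1592 single ratios, 1214 moved little, 356 moved and 22 turned sign. Counts add both libraries, or are genes called in both. At least 10 UMIs of a set left 17 macrophage, 7 dendritic and 142 class II barcodes. With no barcode filter there were 2 neutrophil barcodes. Confined genes numbered 4 at a 90% limit, and spread genes 3 after thinning to 3000 UMIs. Without the barcode richest in a gene, 5 genes were higher in deep Cd3e barcodes, and in Cd3e-free barcodes 0 were higher and 2 lower in the female library. With no filter on low counts, 7 were higher in deep barcodes and 16 lower in the female library, in shallow and in deep barcodes alike. At 2-fold 1 was higher in deep barcodes. With equal weight per barcode 6 were higher in deep barcodes and 11 in female Cd3e-free barcodes. With the split at 20000 UMIs 6 were higher in deep barcodes, and in shallow ones 1 was higher and 3 were lower in the female library; with the split at 15000, 1 was lower. Outside the 4 groups 1 gene was confined (Lyz2), 1 was higher in deep, 3 in Cd3e-free and 4 in Foxp3 barcodes, 1 was higher in the female library in shallow barcodes (Lyz2), and 2, 1 and 2 were lower there in shallow, deep and Cd3e-free barcodes. Genes of the set drew these groups, so the loss of those genes was in part set by the rule. Without keratin barcodes 5 were higher in female Cd3e-free barcodes.

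Log2 ratios that turned sign follow. For Lyz2 deep over shallow in the female library, 2.55 without its richest barcode, 0.19 with equal weight per barcode and 3.67 with the split at 15000 UMIs. With equal weight, male Cst3 Cd3e-free over shallow was -0.48 and Il1b female over male in Cd3e-free barcodes 0.26. With the split at 15000, male Lyz2 Foxp3 over Cd8 was 0.75, and in shallow barcodes H2-Aa and H2-Eb1 female over male were 0.0755 and 0.0164. Outside the 4 groups, male deep over shallow was -0.34 for H2-Aa, -0.13 for H2-Eb1 and -0.17 for Cd14; Cd3e-free over shallow was -1.48 for H2-DMa, -0.28 for Cd74 and -3.87 for Lyz2 in the female library and -1.07 for H2-Ab1, -1.10 for H2-Eb1 and -0.82 for Cd74 in the male; male Foxp3 over Cd8 was 0.43 for Lyz2 and -0.76 for Spi1; and H2-Eb1 female over male in shallow barcodes was 0.0935. Without keratin barcodes, Cd3e-free over shallow was 0.14 for female Ctss and -0.0164 for male Cst3. Beyond the removed barcodes, the cause was not tested. Depth limits Clec9a, Csf3r, Adgre1, Xcr1 and Ciita, which had under 50 UMIs in both libraries, to counts of barcodes.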
